A study of Mus musculus with 6 samples.

Results

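Proteasome subunit genes were examined in BV-2 cells, a mouse microglial cell line immortalised with the raf and myc oncogenes. Members were the genes whose symbol is Psma, Psmb, Psmc or Psmd followed by a number, taken from rows with exactly 1 annotated symbol, without the inducible catalytic subunits Psmb8, Psmb9 and Psmb10. Of 41345 rows 37 matched, and the row with the highest mean was used for each gene, which gave 35 of the 22180 genes with such a row. They comprised 15 genes of the core particle (Psma and Psmb) and 20 of the regulatory cap (Psmc and Psmd). Not all 35 are constitutive subunits: Psma8 and Psmb11 are known for the testis and the thymus, and Psmd5, Psmd9 and Psmd10 code for chaperones that help to assemble the cap. The core subunit Psma4 is missing from the 35, because each of its rows also names a second gene, AY074887.

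The series held 6 arrays, 3 labelled control (resting cells) and 3 labelled LPS. The LPS cells received lipopolysaccharide of Escherichia coli serotype O111:B4, a bacterial cell wall component sensed through Toll-like receptor 4, at 1 µg/mL for 24 h. Cells of both groups were plated in medium with reduced serum. The labels give no collection time and no vehicle for the control cells, and do not state whether the replicates are separate cultures. The p-values therefore rest on the variation among 6 arrays, part of which may be technical. BV-2 is 1 immortalised line, and in such bulk samples fewer expressing cells and less RNA per cell cannot be told apart.

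The proteasome degrades proteins tagged with ubiquitin. Its core is a barrel of outer rings of alpha subunits and inner rings of beta subunits, of which Psmb5, Psmb6 and Psmb7 cut peptide bonds. The cap binds ubiquitin, removes it, and unfolds the substrate with a ring of ATPases. In macrophages, interferon is known to replace the catalytic subunits of newly made cores by Psmb8, Psmb9 and Psmb10, which favours peptides for MHC class I, and the proteasome also degrades the inhibitor of NF-kappaB when Toll-like receptors signal.

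Values are log2 expression values per row of the deposited table, and a change of 1 is 2-fold. Array medians lay between 2.88 and 2.97. Control replicate 2 stood apart: over the 10333 rows with a mean of at least 5, its median difference from the mean of the other controls was -0.44, and it had the lowest value of the 6 arrays in 58.3% of them. Of 11 microglia and macrophage markers 10 lay above 3.09, the 95th percentile of chemosensory receptor rows, which serves as a guide to background. Cd68 had a mean of 10.80 and Csf1r of 9.18, while Aif1, Cx3cr1 and P2ry12 lay between 3.65 and 3.97, and Tmem119, at 2.68, was within background. Of 18 measured markers of astrocytes, neurons, oligodendrocytes, fibroblasts, endothelium and lymphocytes, Rbfox3 (3.46) and Nkg7 (4.12) exceeded 3.09. The agent was visible in its known targets, such as the inhibitor Nfkbia, which rose by 2.57 on the log2 scale (limma adjusted p = 0.0054).

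The first question was whether LPS changed the amount of proteasome subunit transcripts. None of the 35 passed in limma at adjusted p under 0.05, higher or lower, where 0.193% of all rows were called higher and 0% lower. Log2 fold changes (LPS minus control) ran from -0.40 for Psma8 to 1.13 for Psmd10, with a median of 0.27, against 0.03 over all rows and 0.15 over rows with a mean of at least 5. They were above 0 for 31 members, as for 55.8% of all rows and 70.9% of rows with a mean of at least 5. At an unadjusted p under 0.05, 7 members were higher (Psma3, Psma6, Psmd3, Psmd5, Psmd10, Psmd11 and Psmd13) and 0 lower, where the background was 4.98% higher and 1.4% lower over all rows, and 11.4% and 1.19% over rows with a mean of at least 5. Limma's 95% interval lay within 2-fold in either direction for 25 of the 35 members, reached above a 2-fold rise for 10, and reached a 2-fold fall for 0. For those 10, these arrays leave room for a 2-fold rise. Without control replicate 2 the interval lay within 2-fold for 32 of the 35 members. Psmd10 (0.71, half-width 0.55) and Psmd11 (0.62, half-width 0.49) then still reached above a 2-fold rise. Psmb3 (-0.46, half-width 0.57) then reached below a 2-fold fall.

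Control replicate 2 moved with these values. It was the lowest of the 6 arrays for 31 of the 35 members, and the lowest control for 33. Without it, the median log2 fold change of the members was 0.0055, against -0.01 over all rows, with 19 members above 0 and 16 below, in place of 31 and 4 (51.5% of rows with a mean of at least 5 were then above 0). Again 0 members were called in limma, where 0.128% of rows were called higher and 0.0339% lower. At an unadjusted p under 0.05, Psmd3, Psmd5, Psmd10 and Psmd11 were then higher and the core subunit Psmb2 lower. The background was 4.98% higher and 3.98% lower over all rows. Of the 10333 rows with a mean of at least 5, 990 were higher and 785 lower. After quantile normalization, which gives all arrays 1 distribution, the members' median was 0.10 and 23 were above 0. Of all 41345 rows 19367 were then above 0, and of the 10333 rows with a mean of at least 5, 4742. At an unadjusted p under 0.05, 4 members were higher and 0 lower (background 3.66% and 3.12% over all rows). Of the 10333 rows, 1354 were under that threshold in either direction.

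**Figure D1:**
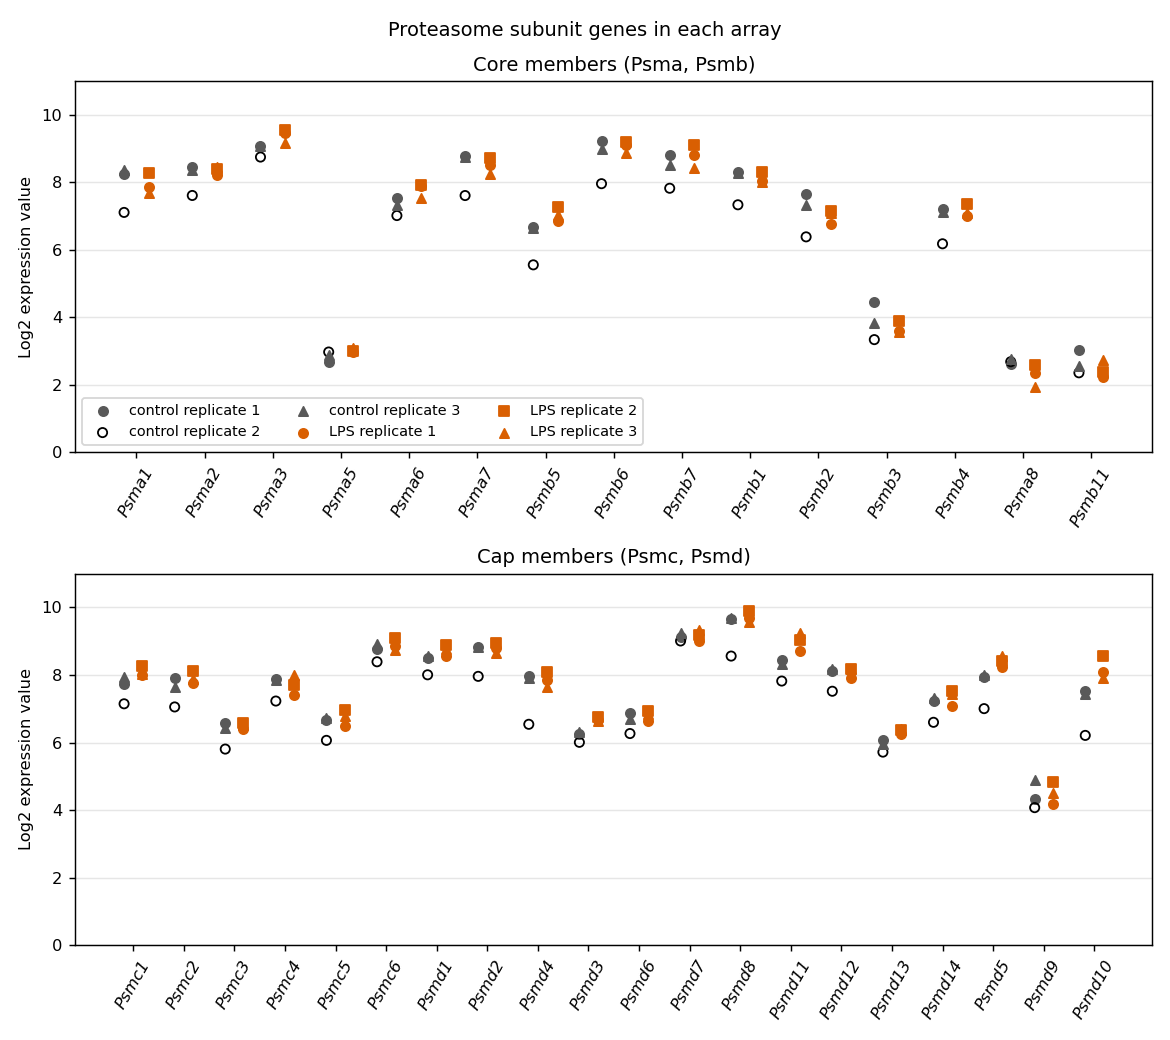
Log2 expression value of each proteasome subunit gene in each of the 6 arrays, controls in grey or open black and LPS arrays in orange, core members above and cap members below. Control replicate 2 (open circles) is the lowest array for 31 of the 35 genes, and the LPS points of Psmd10 and Psmd11 lie above all of their controls.

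Promoters of 4 members are shown to set the highest fold changes beside a value near 0: Psmb5 had the highest fold change of the core, Psmd10 and Psmd11 the highest of the cap, and Psma1 (0.03) the core value nearest to 0. Without control replicate 2 their fold changes were 0.39, 0.71, 0.62 and -0.36 in that order. Psma1 was then no longer near 0. Each sequence is the 250 bases before the annotated start, 5′ to 3′ on the gene's strand, from RefSeq (GRCm38.p6). The windows are chr14:54617996-54618245 (minus strand), chrX:140956712-140956961 (minus strand), chr11:80428365-80428614 (plus strand) and chr7:114276117-114276366 (minus strand). Capitals mark matches to any of 4 motifs searched on both strands.
Psmb5: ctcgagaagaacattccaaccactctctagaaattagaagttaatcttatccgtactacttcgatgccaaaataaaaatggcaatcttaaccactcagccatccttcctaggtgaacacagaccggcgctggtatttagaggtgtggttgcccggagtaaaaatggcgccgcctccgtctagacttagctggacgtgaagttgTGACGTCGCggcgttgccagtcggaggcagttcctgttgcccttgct
Psmd10: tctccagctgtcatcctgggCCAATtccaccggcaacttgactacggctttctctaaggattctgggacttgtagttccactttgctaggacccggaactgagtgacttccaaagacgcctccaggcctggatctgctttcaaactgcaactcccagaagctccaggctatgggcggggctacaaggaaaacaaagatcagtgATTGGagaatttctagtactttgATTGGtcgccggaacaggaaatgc
Psmd11: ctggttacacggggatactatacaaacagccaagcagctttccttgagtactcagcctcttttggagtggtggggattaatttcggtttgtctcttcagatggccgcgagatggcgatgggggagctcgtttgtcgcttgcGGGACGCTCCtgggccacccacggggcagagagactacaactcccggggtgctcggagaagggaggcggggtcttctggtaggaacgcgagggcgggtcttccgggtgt
Psma1: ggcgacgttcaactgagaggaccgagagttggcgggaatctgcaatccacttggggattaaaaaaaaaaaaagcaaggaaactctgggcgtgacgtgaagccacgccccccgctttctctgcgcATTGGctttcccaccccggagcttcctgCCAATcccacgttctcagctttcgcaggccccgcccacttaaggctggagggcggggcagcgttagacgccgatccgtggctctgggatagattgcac

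The motifs were the antioxidant response core TGACNNNGC, which factors of the NRF family bind, the CCAAT box (CCAAT) of the factor NF-Y, the NF-kappaB motif and the core of interferon-stimulated response elements (GAAA and GAAA again, with any pair of bases between). In the windows shown, Psmb5 had the antioxidant core, from 47 to 39 bases before the start. Psmd10 had 3 CCAAT boxes, Psmd11 had the NF-kappaB motif and Psma1 had 2 CCAAT boxes. A match in these letters is a description and not a binding site. Promoters in the table were found for 28 of the 35 members. Of these, 5 held the antioxidant core (Psmb5, Psmb6, Psmc6, Psmd9 and Psmd12), where 10.2% of all 32817 promoters did, and 12 held a CCAAT box, against 33.8% of all. The NF-kappaB motif was found in 5 members (Psma6, Psma7, Psmd11, Psmd12 and Psmd13; 7.25% of all promoters) and the interferon core in 3 (Psmb3, Psmd4 and Psmd9; 2.97% of all). Members with the antioxidant core differed in fold change, from 0.08 for Psmd9 to 0.76 for Psmb5.

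Among the catalytic subunits, Psmb5, the chymotrypsin-like site, read 6.67, 5.56 and 6.65 in control replicates 1 to 3 and 6.86, 7.28 and 7.02 in the LPS replicates. All LPS values lay above all control values, with control replicate 2 more than 1 log2 unit below the others. The log2 fold change was 0.76 (SE 0.32, 95% interval -0.0048 to 1.53, limma adjusted p = 0.79), and 0.39 (SE 0.18) without control replicate 2. Psmb6, the caspase-like site, had control values of 9.23, 7.96 and 8.98 and LPS values of 9.10, 9.18 and 8.88. Its groups overlapped, since control replicates 1 and 3 lay among or above the LPS arrays, and its fold change of 0.33 (SE 0.33, 95% interval -0.46 to 1.12, adjusted p = 1) was -0.05 without control replicate 2. Psmb7, the trypsin-like site, went from 8.81, 7.82 and 8.50 to 8.80, 9.10 and 8.44, also with overlap, and its fold change of 0.40 (SE 0.29, adjusted p = 0.98) was 0.12 without that array.

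Of 6 alpha ring genes 0 passed, and all 6 fold changes were above 0 (median 0.19), or 3 of 6 without control replicate 2. The shares of rows with a mean of at least 5 were 70.9% and 51.5%. Alpha subunits form the gate of the barrel and the surface on which the cap docks. Psma6 read 7.53, 7.02 and 7.32 in controls and 7.89, 7.93 and 7.54 in LPS arrays, a fold change of 0.50 (SE 0.19, adjusted p = 0.72). Psma3 read 9.07, 8.75 and 9.08 in controls and 9.47, 9.56 and 9.15 after LPS, a fold change of 0.43 (SE 0.18, adjusted p = 0.76). Both had every LPS value above every control, by a narrow gap: LPS replicate 3 exceeded the highest control by 0.01 for Psma6 and 0.07 for Psma3. Psma1, Psma2 and Psma7 had fold changes of 0.03, 0.21 and 0.11, which were -0.36, -0.06 and -0.27 without control replicate 2. The Psma5 row lay between 2.69 and 3.08 in all arrays, within the range of receptor rows, and so gives little information on this subunit. A second, dimmer Psma5 row had a fold change of -0.26, with overlap. On the brighter row shared by Psma4 and AY074887, the mean was 7.98 ± 0.37 in controls and 8.25 ± 0.19 after LPS (SD, n = 3; adjusted p = 0.99).

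The structural beta subunits Psmb1, Psmb2, Psmb3 and Psmb4 complete the inner rings without cutting. Fold changes were 0.15, -0.13, -0.19 and 0.32, and 0 of 4 passed. Without control replicate 2 all 4 were below 0, from -0.01 for Psmb4 to -0.50 for Psmb2. Of the 10333 rows with a mean of at least 5, 5016 were then below 0. Psmb2 read 7.66, 6.38 and 7.33 in controls and 6.75, 7.14 and 7.10 after LPS, so that the LPS values lay below control replicates 1 and 3 and above control replicate 2. Psmb3 had values of 4.46, 3.34 and 3.83 in controls and 3.60, 3.88 and 3.57 after LPS, with overlap. The tissue-specific genes were within background: Psmb11 read 3.04, 2.36 and 2.56 against 2.24, 2.38 and 2.73. Psma8, with the lowest mean of all members (2.49), read 2.63, 2.69 and 2.75 in controls and 2.36, 2.59 and 1.93 after LPS, and was the only member whose LPS values all lay below the controls (3.48% of all rows and 1.23% of rows with a mean of at least 5 did).

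In the cap, 0 of 20 genes passed. The fold changes of all 20 were above 0 and had a median of 0.34. Of rows with a mean of at least 5, 70.9% were above 0, with a median of 0.15. Without control replicate 2, 14 of the 20 were above 0 and the median was 0.06. Of rows with a mean of at least 5, 51.5% were then above 0, with a median of 0.01. The largest fold changes were those of 2 assembly chaperones and 1 lid subunit. Psmd10, or gankyrin, a chaperone of the ATPase ring that is also known to bind the retinoblastoma protein, read 7.51, 6.21 and 7.43 in controls and 8.09, 8.56 and 7.91 after LPS. Its LPS values lay above all controls, and the fold change of 1.13 (SE 0.38, 95% interval 0.23 to 2.03, adjusted p = 0.61) was 0.71 (SE 0.23) without control replicate 2. Psmd5, another chaperone of the base, read 7.93, 7.00 and 8.01 against 8.24, 8.41 and 8.55, a fold change of 0.76 (SE 0.28, adjusted p = 0.70), and of 0.44 (SE 0.16) without that array. The groups of Psmd5 did not overlap either. The third chaperone, Psmd9, differed from them: its values of 4.34, 4.07 and 4.88 in controls and 4.17, 4.84 and 4.51 after LPS overlapped (fold change 0.08, SE 0.27).

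The lid removes ubiquitin and joins the cap to the core. Psmd11, a subunit that clamps the lid to the alpha ring, read 8.44, 7.82 and 8.32 in controls and 8.72, 9.03 and 9.25 after LPS. The groups did not overlap, and the fold change of 0.81 (SE 0.22, 95% interval 0.28 to 1.34) had the lowest adjusted p of all members, 0.47. It was 0.62 (SE 0.20) without control replicate 2. Psmd3 read 6.24, 6.01 and 6.31 against 6.66, 6.77 and 6.62, with a fold change of 0.50 (SE 0.14, adjusted p = 0.49). Psmd13 read 6.08, 5.72 and 5.95 against 6.26, 6.38 and 6.40, a fold change of 0.43 (SE 0.15, adjusted p = 0.65). Control replicate 2 differed from the mean of the other controls by -0.27 and -0.30, less than for most members, and the fold changes without it were 0.41 and 0.33. Psmd7, a scaffold partner of the deubiquitinating subunit, had like values in all arrays, at 9.11, 9.01 and 9.24 against 9.0, 9.20 and 9.34 (fold change 0.06, 95% interval -0.30 to 0.42).

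Psmd8, the member with the highest row signal, read 9.66, 8.56 and 9.67 in controls and 9.69, 9.89 and 9.56 after LPS. Row signals depend on the probes and do not rank genes by abundance. The groups overlapped, and its fold change of 0.41 (SE 0.32, adjusted p = 0.98) was 0.04 without control replicate 2. Psmd14, which codes for the deubiquitinating enzyme of the lid, had a fold change of 0.29 (SE 0.23), or 0.07 without that array. Psmd6 and Psmd12 had 0.18 and 0.16, or 0.0055 and -0.05. In all, 3 of 8 lid genes had LPS values above all controls (7.74% of all rows and 14.9% of rows with a mean of at least 5 did), and 7 of 8 were above 0 without control replicate 2 (51.5% of the latter rows were).

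Of 6 ATPase genes, which unfold substrates, 0 passed, with fold changes from 0.04 for Psmc4 to 0.49 for Psmc1. Psmc1 read 7.72, 7.15 and 7.95 in controls and 8.01, 8.25 and 8.02 after LPS, without overlap (SE 0.23, adjusted p = 0.85), and its fold change was 0.26 without control replicate 2. Psmc4 read 7.90, 7.23 and 7.85 against 7.40, 7.72 and 7.99, with overlap, and its fold change turned to -0.17 without that array. The other 4, Psmc2, Psmc3, Psmc5 and Psmc6, lay between 0.21 and 0.39, or between -0.01 and 0.15 without it. Of the large base subunits, the scaffold proteins Psmd1 and Psmd2 had 0.38 and 0.25 (0.20 and -0.04 without control replicate 2) and the ubiquitin receptor Psmd4 had 0.39. Psmd4 had the widest gap of all members between control replicate 2 and the other controls (7.97, 6.54 and 7.92, against 7.85, 8.10 and 7.65 after LPS), and its fold change was -0.08 without it. Psmd1 had no overlap between groups, but its lowest LPS value exceeded its highest control by only 0.005.

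**Figure D2:**
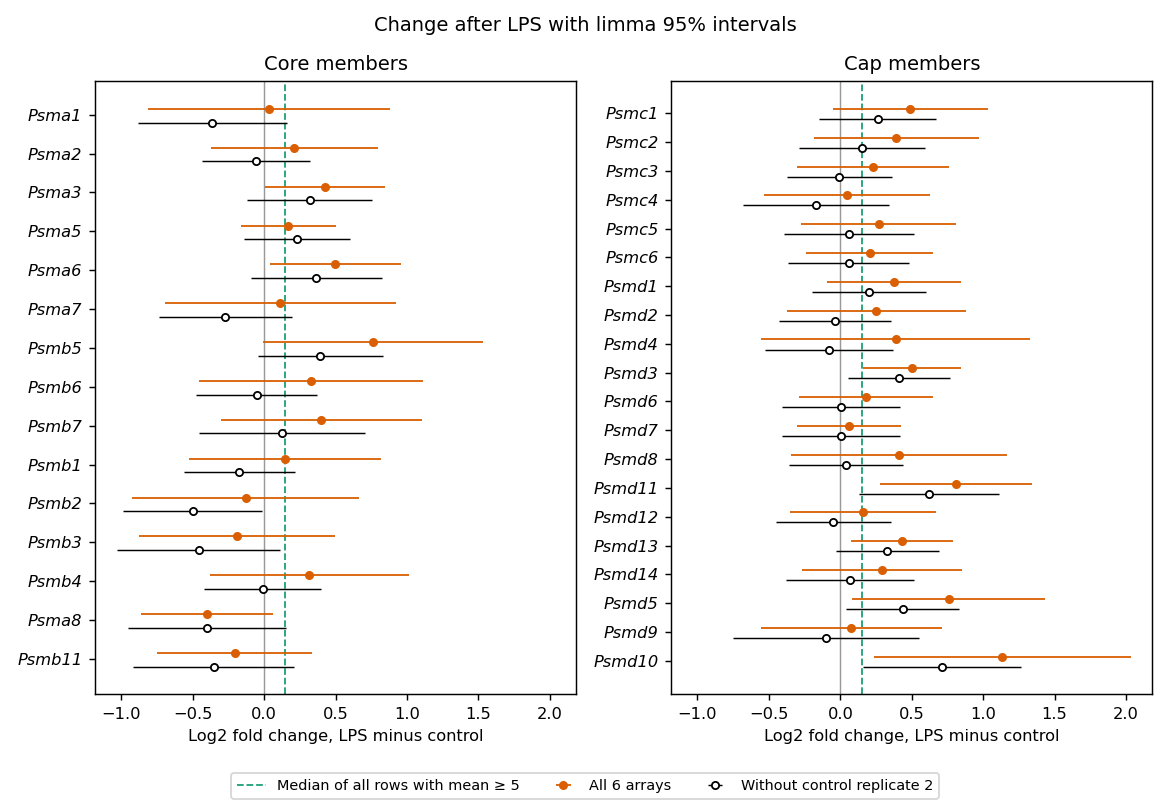
Log2 fold change (LPS minus control) of each member with limma's 95% interval, from all 6 arrays (orange) and without control replicate 2 (open black), and the median of all rows with a mean of at least 5 (dashed). Without that array, the core estimates lie between -0.50 and 0.39 and the cap estimates between -0.17 and 0.71.

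Across the complex, all LPS values lay above all controls for 11 members, where 7.74% of all rows and 14.9% of rows with a mean of at least 5 did. These were 4 core genes (Psma3, Psma5, Psma6 and Psmb5) and 7 cap genes (Psmc1, Psmd1, Psmd3, Psmd5, Psmd10, Psmd11 and Psmd13). For Psma5, a row within background, the gap was only 0.003. The other 23, beside Psma8, overlapped. A mean of at least 5 was reached by 30 members, 11 of the core and 19 of the cap, and the other 5 were Psma5, Psma8, Psmb3, Psmb11 and Psmd9.

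Members varied among themselves in how far control replicate 2 lay below the other controls. The median of this difference was -0.69, wider than the -0.44 of all rows with a mean of at least 5, and single members ran from 0.18 for Psma5 to -1.41 for Psmd4. It was -1.10 for the median of the 3 catalytic subunits, -0.97 for the structural beta subunits, -0.66 for the ATPases and -0.54 for the lid. Control SDs exceeded LPS SDs for 32 of the 35 members, with medians of 0.41 and 0.18. Over rows with a mean of at least 5 the medians were 0.34 and 0.27. Measured from each row's mean over 6 arrays, the median member stood at 0.14, -0.60 and 0.10 in control replicates 1 to 3 and at 0.04, 0.32 and 0.14 in the LPS replicates. LPS replicate 2 was the highest array for 18 of the 35 members, and for 3156 of the 10333 rows with a mean of at least 5.

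Core and cap differed most in control replicate 1 and LPS replicate 3. Relative to row means, the core median was 0.23 in control replicate 1 and -0.01 in LPS replicate 3, while the cap median was 0.01 and 0.17. In LPS replicate 2 they were close (0.29 and 0.33). The median log2 fold change was 0.17 for the core and 0.34 for the cap, and without control replicate 2 it was -0.06 and 0.06. Whether core and cap differ in their response was not tested, and the core median includes Psma5 and 2 tissue-specific genes at background. Over members with a mean of at least 5, which also leaves out Psmb3 and Psmd9, the medians were 0.32 and 0.38.

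**Figure D3:**
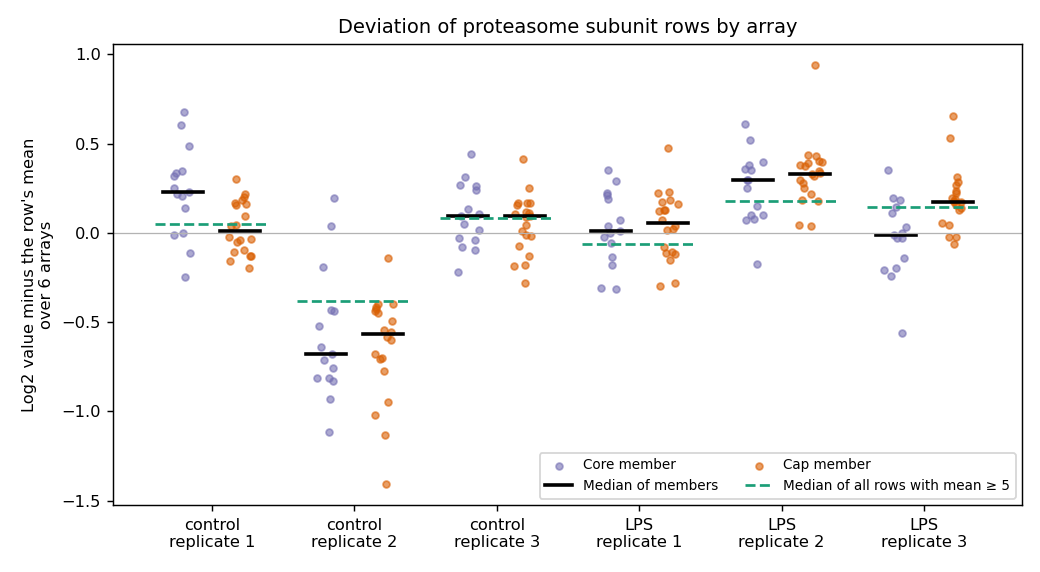
Each member's log2 value minus its mean over the 6 arrays, by array, for core (purple) and cap (orange) genes, with the median of the members (black bars) and of all rows with a mean of at least 5 (dashed green). Control replicate 2 lies lowest for both, with medians of -0.68 for the core and -0.57 for the cap against -0.38 for all such rows.

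The inducible catalytic subunits were measured beside the constitutive ones they replace. Psmb10 read 6.53, 5.42 and 6.33 in controls and 7.00, 7.30 and 7.77 after LPS, without overlap (fold change 1.26, SE 0.34, adjusted p = 0.44, or 0.93 without control replicate 2). Psmb8 and Psmb9 had fold changes of 0.47 (adjusted p = 0.98) and 0.72 (adjusted p = 0.94), or 0.05 and 0.20 without that array, and their groups overlapped. Differences taken within each array were steadier between controls than the levels. The Psmb10 value minus the Psmb7 value was -2.28, -2.40 and -2.17 in controls and -1.80, -1.80 and -0.66 after LPS, a shift of 0.86 (two-sided exact permutation p = 0.1, the smallest that 3 against 3 arrays allow; 0.15 adjusted over 3 pairs). The shift was 0.48 without LPS replicate 3. Psmb8 minus Psmb5 moved the other way, from 1.09, 0.98 and 1.18 to 0.79, 0.64 and 0.95, a shift of -0.29 (exact permutation p = 0.1; 0.15 adjusted). Psmb9 minus Psmb6 shifted by 0.39 (exact permutation p = 0.3), or 0.14 without LPS replicate 3. With 3 arrays per group no pair could reach p under 0.05.

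**Figure D4:**
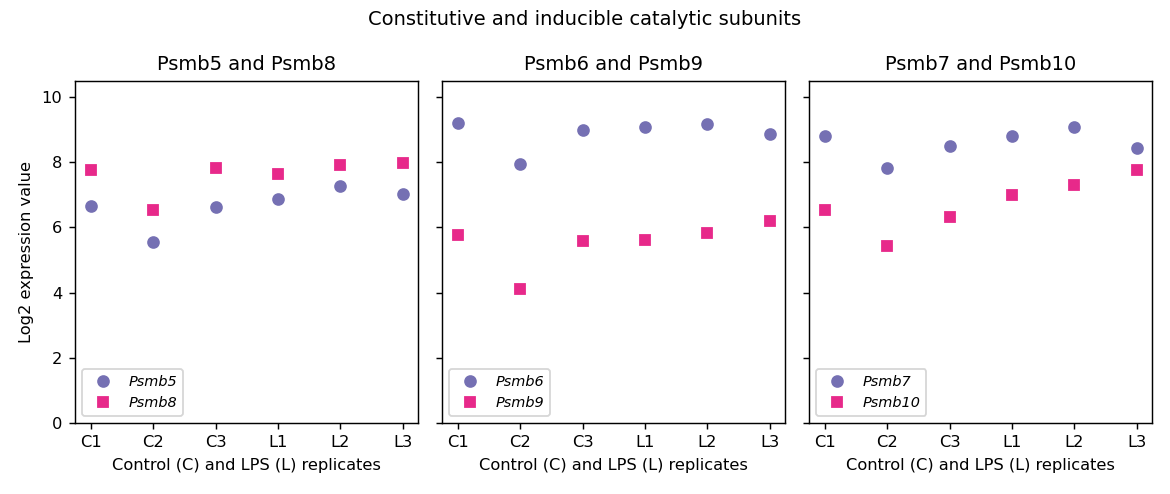
Log2 expression values of the constitutive catalytic subunits (circles) and the inducible ones that replace them (squares) in control (C) and LPS (L) replicates. Both members of each pair dip in control replicate 2, and Psmb10 lies nearest to Psmb7 in LPS replicate 3.

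Of 41 further genes of the pathway 32 had a row, and 0 were called higher or lower in limma, with 4 higher and 0 lower at an unadjusted p under 0.05, a count near the 11.4% higher of rows with a mean of at least 5. The median fold change was 0.25, or 0.11 without control replicate 2. The transcription factor Nfe2l1 (NRF1), known to raise proteasome genes when proteasome activity is short, read 6.21, 6.21 and 6.16 in controls and 6.64, 7.01 and 7.10 after LPS. Its groups did not overlap and control replicate 2 was level with the other controls, so that the fold change of 0.72 (SE 0.16, adjusted p = 0.31) was 0.73 without that array. Its relative Nfe2l2 (NRF2) had 0.38 (SE 0.24, adjusted p = 0.95), or 0.18 without control replicate 2, and the subunits of the CCAAT-binding factor, Nfya, Nfyb and Nfyc, had 0.35, 0.01 and -0.07, or 0.29, -0.16 and -0.42 without that array.

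Activators open the gate of the core in place of the cap. The nuclear activator Psme4 read 7.12, 6.61 and 7.26 in controls and 7.61, 7.77 and 7.53 after LPS, without overlap (fold change 0.64, SE 0.20, adjusted p = 0.56). The interferon-inducible pair Psme1 and Psme2 had 0.65 and 0.57, or 0.16 and 0.31 without control replicate 2, and both overlapped. The list of 5 activators and inhibitors had a median of 0.57, or 0.16 without control replicate 2, and Psme3 had 0.13. Among assembly factors outside the rule, 4 of 6 measured genes lay below 0. Of all 41345 rows 18267 did, and of the 10333 rows with a mean of at least 5, 3004. Among these genes Psmg3 and Psmg4 were dim, with means of 4.21 and 3.23. Psmg4 had a fold change of -0.03 (SE 0.14) and Psmg1 of -0.10 (SE 0.30). The core maturation protein Pomp had -0.02 (SE 0.34, or -0.39 without control replicate 2) and Psmg2 0.07. Fold changes of these factors lay between -0.34 for Psmg3 and 0.21 for Ecpas, a range that holds the cap chaperone Psmd9 (0.08) and lies below Psmd5 and Psmd10.

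Cap partners and ubiquitin shuttles had 8 of 8 measured genes above 0, as did 70.9% of rows with a mean of at least 5, with a median of 0.22. Without control replicate 2, 6 of 8 were above 0 (51.5% of such rows were) and the median was 0.11. The lid subunit Sem1 had 0.11, or -0.26 without that array, and the deubiquitinase Uchl5 0.06. The shuttle proteins Rad23b and Ubqln1 and the ligase Ube3c had all LPS values above all controls, at 0.40, 0.31 and 0.44. This was so for 7.74% of all rows and 14.9% of rows with a mean of at least 5. The 3 genes did not pass (limma adjusted p = 0.93, 0.82 and 0.74). Without control replicate 2 they had 0.15, 0.27 and 0.33. Of the genes that make or load ubiquitin, 4 of 9 had a row. Nploc4 and Uba6 had 0.35 (SE 0.20) and 0.37 (SE 0.25), and the unfolding ATPase Vcp had 0.23 (SE 0.23). Without control replicate 2 these were 0.27, 0.15 and 0.07, and the median of the 4 went from 0.29 to 0.12.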

How the data were processed

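Log2 expression values per transcript cluster were used as deposited by the authors. Per the submitters' processing notes, Affymetrix Expression Console produced them. Its version, background correction and normalization are not given in the sources used here. The log2 scale was read from the values. Gene names came from GEO's platform annotation: 23521 of 41345 rows had 1 symbol, 1814 several and 16010 none. The 95% intervals and SE are limma's (limma 3.58.1, R 4.3.3; lmFit and eBayes over all rows, Benjamini-Hochberg adjustment, no filter), and the fit was tested on simulated data. SD and n refer to 3 arrays per group, and their number limits precision. Members, roles and related lists were chosen with earlier results of these data known. Values in each array are given for the catalytic subunits, the 3 highest and 3 lowest fold changes of core and cap, the highest and lowest levels, up to 10 members without overlap, and some others chosen after their values were seen (Psmb2, Psmd4 and related genes without overlap). Alternatives covered normalization, filters, moderation, array weights, a replicate block, row choice and leaving out arrays. Promoters were RefSeq's.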

Additional observations from a re-analysis of the deposited data

How the results depend on the processing

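No member passed adjusted p under 0.05 in limma in any of 15 alternatives, and the smallest adjusted p of a member ran from 0.22 to 1. Leaving out 1 array at a time gave a median log2 fold change between -0.06 and 0.32 for core members and between 0.06 and 0.44 for cap members. Taking the mean of all rows of a gene gave 0.15 for the core and 0.29 for the cap, in place of 0.17 and 0.34. With that choice 30 members were above 0, in place of 31. Of 266 fold changes of 18 named members under alternatives, 86 equalled the main value, by construction. A block, moderation, row filter or row choice does not move the fold change of a named member. Of the other 180, 17 changed sign, and the cause was not tested. After quantile normalization Psmd9, Psmd7 and Psmc4 had -0.043, -0.082 and -0.15, after cyclic loess normalization -0.021, -0.093 and -0.12, and Psmc4 had -0.092 with array weights. Without control replicate 2 and LPS replicate 3 together they had -0.10, -0.077 and -0.31. With 1 array left out, Psmb3 ran from -0.46 to 0.10, Psmb6 from -0.052 to 0.58, Psmd9 from -0.10 to 0.30, Psmc4 from -0.17 to 0.20 and Psmd7 from -0.022 to 0.15.

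Over all rows, 80 were called higher and 0 lower. The number higher was 129 with rows of a mean of at least 5, 132 with array weights, and 152 with 67 lower without control replicate 2 and LPS replicate 3 together. With rows of a mean of at least 5, fewer rows are tested and the unadjusted p-values moved too. Members higher at an unadjusted p under 0.05 in limma were then 4, in place of 7. With 1 array left out it ran from 15 to 76 higher and 0 to 14 lower. With the replicate number as a block it was 7, and 0 members passed. Deviations of same-numbered arrays correlated with r = 0.07, -0.26 and -0.22 over all rows. With 3 arrays per group, 1 of which stood apart, these values cannot decide whether the numbers pair the samples.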
